A study of Mus musculus with 33 samples.

Results

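The 10 genes described here are expressed in the wall of blood vessels or build caveolae: Cdh5, Pecam1, Rgs5, Pdgfrb, Cspg4, Acta2, Mgp, Sparcl1, Cav1 and Cav2. They were taken by gene symbol and are 10 of the 48795 genes in the deposited table, and they were chosen by function and selected on earlier results in the same tumours. Their differences between treatments are therefore given as descriptions: no p-value is given for a gene, and whether a gene is called (an adjusted p under 0.05) describes where it lies and is not evidence for it. All 10 passed the filter on low values and are accounted for below.

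Male FVB mice carried subcutaneous tumours on both flanks, started from the line Myc-CaP (mouse prostate carcinoma with a MYC transgene), so the blood vessels in them come from the host. Dosing started at 50 mm3 and lasted 3 weeks. It compared vehicle (10 tumours), ESK981 at 15 mg/kg by mouth on 5 days a week (8 tumours), an antibody against PD-1 injected into the peritoneum at 200 µg a mouse 3 times a week (7 tumours), and both agents together, called the combination here (8 tumours). ESK981 is an inhibitor of several kinases, among them the lipid kinase PIKfyve, and PD-1 is an inhibitory receptor of T cells. Mice not given the antibody received its isotype control, per the protocol in the labels, and ages are not given there. Each group held 5 mice, 13 of the 20 mice gave 2 tumours and 7 gave 1, and tumours are named by a mouse number within the group and by flank (L or R).

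A vessel is a tube of endothelial cells wrapped by mural cells, which are pericytes on capillaries and smooth muscle cells on larger vessels. Endothelial cells hold each other through VE-cadherin (Cdh5) and PECAM-1 (Pecam1). They recruit pericytes by releasing PDGF-B, which binds the receptor PDGFRβ (Pdgfrb) on the mural cell, and pericytes also carry the proteoglycan NG2 (Cspg4) and the G-protein signalling regulator RGS5. Contractile mural cells and activated fibroblasts make smooth muscle actin (Acta2). Matrix Gla protein (Mgp) restrains calcification of the vessel wall, and SPARC-like 1 (Sparcl1) is a secreted matrix-associated protein. Caveolin-1 and caveolin-2 (Cav1, Cav2) form the coat of caveolae, small pits of the plasma membrane that are abundant in endothelium but also occur in many other cells, tumour cells included.

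Cav1 and Cav2 are neighbours on chromosome 6 with starts 25150 bp apart on the same strand, and their levels moved together from mouse to mouse. Rgs5 and Acta2 are both mural cell genes with unlike ESK981 estimates, 1.06 and 0.04 on the log2 scale against vehicle. Promoters of these 4 genes are shown because of those contrasts, from 250 bases before to 50 bases after the RefSeq start. For Acta2, on the minus strand, that start (34255373) lies inside the gene as given below, which begins at 34255590. Most of the Acta2 window therefore lies within the gene. They are RefSeq sequences of build GRCm38.p6, and 5 of the 10 genes matched the promoter table. Capitals mark TATATA (the core of a TATA box), GGGCGG (a GC box) or TGACTCA (an AP-1 site) on either strand, and these motifs were chosen after the sequences were seen. The E-box CACGTG was also searched and was in none of the 4.
Cav1 (chr6:17306085-17306384, plus strand): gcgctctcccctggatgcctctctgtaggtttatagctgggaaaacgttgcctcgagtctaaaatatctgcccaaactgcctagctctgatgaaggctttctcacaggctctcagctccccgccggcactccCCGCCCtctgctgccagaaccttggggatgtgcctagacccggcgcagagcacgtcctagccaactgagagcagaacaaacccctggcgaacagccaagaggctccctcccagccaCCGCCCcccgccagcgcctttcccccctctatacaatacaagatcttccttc
Cav2 (chr6:17280935-17281234, plus strand): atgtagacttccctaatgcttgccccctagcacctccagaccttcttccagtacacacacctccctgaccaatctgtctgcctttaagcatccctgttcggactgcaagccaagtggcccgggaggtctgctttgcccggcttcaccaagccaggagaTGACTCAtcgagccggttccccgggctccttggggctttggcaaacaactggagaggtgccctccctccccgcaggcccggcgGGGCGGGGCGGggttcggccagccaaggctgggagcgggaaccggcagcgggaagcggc
Rgs5 (chr1:169655251-169655550, plus strand): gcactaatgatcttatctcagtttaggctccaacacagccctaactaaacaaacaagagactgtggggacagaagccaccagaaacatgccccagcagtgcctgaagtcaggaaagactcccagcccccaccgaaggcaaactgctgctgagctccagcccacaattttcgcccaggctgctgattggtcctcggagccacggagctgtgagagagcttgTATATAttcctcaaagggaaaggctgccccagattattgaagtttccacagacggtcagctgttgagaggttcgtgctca
Acta2 (chr19:34255324-34255623, minus strand): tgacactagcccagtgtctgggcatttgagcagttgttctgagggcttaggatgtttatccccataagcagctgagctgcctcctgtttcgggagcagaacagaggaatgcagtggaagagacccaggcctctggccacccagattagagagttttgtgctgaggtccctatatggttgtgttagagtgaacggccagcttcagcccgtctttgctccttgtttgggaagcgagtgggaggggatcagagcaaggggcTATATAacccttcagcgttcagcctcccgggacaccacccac

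The Cav1 and Cav2 windows each held 2 copies of GGGCGG and no TATATA. In Cav2 the copies overlap each other, beginning at -9 and -4 from the start, and in Cav1 both lie on the other strand and begin at -118 and -2. Cav2 also held TGACTCA at -92. Rgs5 held 1 TATATA at -30, and Acta2 held 1 at 8 bases past the RefSeq start. Of 32851 promoters of the same length, 35.7% held GGGCGG, 5.67% TATATA, 5.2% TGACTCA and 7.15% CACGTG. These matches describe letters and are not evidence of binding.

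Sequencing depth, recovered from the steps in the FPKM values, was 9.9e+06 to 3.24e+07 fragments a tumour. It ran from 9.9e+06 to 1.84e+07 in vehicle tumours and from 1.81e+07 to 3.24e+07 in ESK981 tumours. Summed FPKM on ribosomal RNA sequence was 1.27e+05 to 2.4e+05 with vehicle and 1.5e+04 to 8.64e+04 with ESK981, without overlap. With anti-PD-1 (3.63e+04 to 1.79e+05) and the combination (1.96e+04 to 5e+05) it overlapped vehicle. The part of depth and ribosomal RNA in the differences below was not tested. The 9 vehicle tumours other than 5R were sequenced on 1 flow cell, and vehicle 5R with all 23 treated tumours on another, so flow cell and treatment can hardly be told apart. Vehicle 5R and anti-PD-1 4R had the fewest fragments and the highest summed FPKM of mitochondrial genes in their groups, combination 5R had the highest FPKM on ribosomal RNA sequence, and ESK981 1R and 2R stood apart in several of the genes below. The epithelial marker Krt8 was well expressed, while Epcam averaged under 0.1 FPKM in every group. Of the lymphatic and adipocyte marker lists, 0 genes passed the filter on low values. In whole tumours, fewer cells of a type and less RNA per cell cannot be told apart.

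Between ESK981 and vehicle, 5 of the 10 genes passed the threshold of an adjusted p under 0.05 (Cdh5, Rgs5, Mgp, Sparcl1 and Cav2, all higher with ESK981), against 14.4% of all 15846 genes tested. Nothing is read from that count, since the same contrast was known when the genes were chosen. The median log2 difference of the 10 genes was 0.92, beside 0.11 over all genes tested. For Cdh5, Rgs5 and Cav2 every ESK981 mouse was above every vehicle mouse, as was the case for 11% of all genes tested. Vehicle 5R is the one link between treated and vehicle tumours once the flow cell is added to the fit. Adding the flow cell raised the estimates of these 3 (2.78 for Cdh5), Pecam1 (1.998), Sparcl1 (3.19), Mgp (2.09) and Acta2 (2.01). It lowered that of Cav1 (0.46) and turned the sign of Pdgfrb (1.18) and Cspg4 (0.56). In that fit 5786 of all genes tested were called for ESK981, and the median of all genes was 0.60. Pdgfrb, Cspg4 and Acta2, which belong to the mural cell too, had log2 differences of -0.24 ± 0.29, -0.17 ± 0.18 and 0.04 ± 0.38 (estimate ± SE).

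**Figure D1:**
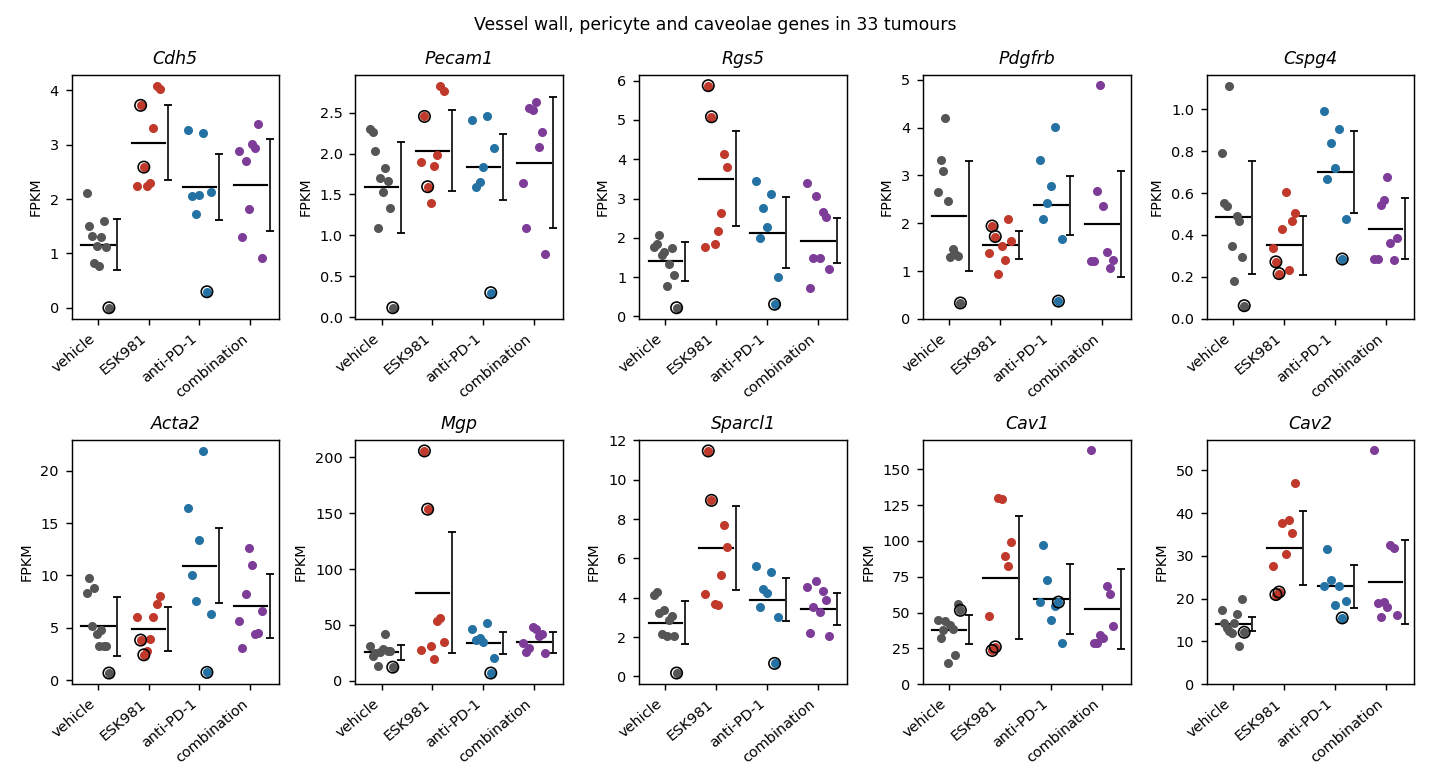
FPKM of the 10 genes in each of the 33 tumours, by treatment group (x axis); the horizontal line is the mean over 5 mice and the bar beside it is ± SD. Rings mark vehicle 5R, anti-PD-1 4R, ESK981 1R and ESK981 2R; all 8 ESK981 tumours lie above every vehicle tumour for Cdh5 and Cav2, and the 2 ringed ESK981 tumours carry the highest Mgp.

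Cdh5 (ENSMUSG00000031871.9, chromosome 8: 104101625 to 104144511 on GRCm38) encodes VE-cadherin, the adhesion molecule of the endothelial junction. Vehicle tumours had a lowest, median and highest level of 0, 1.21 and 2.1 FPKM, and ESK981 tumours 2.23, 2.95 and 4.09 FPKM. All 8 ESK981 tumours were above the highest vehicle tumour. The mean was 1.16 ± 0.475 FPKM with vehicle and 3.04 ± 0.693 FPKM with ESK981 (SD, n = 5 mice each), a log2 difference of 1.17 ± 0.26. Anti-PD-1 tumours (0.294, 2.08 and 3.27 FPKM) and combination tumours (0.921, 2.79 and 3.37 FPKM) lay between and overlapped both other groups. The value of 0 was vehicle 5R, in which no Cdh5 fragment was counted, which allows a level of up to 0.0721 FPKM (3 fragments, counting error only). Without vehicle 5R and anti-PD-1 4R the ESK981 difference was 0.997 ± 0.22 on the log2 scale.

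Pecam1 (ENSMUSG00000020717.19, chromosome 11: 106654217 to 106750628) encodes an adhesion molecule of the same junctions, which platelets and leukocytes also carry. Its level was 0.114, 1.69 and 2.3 FPKM (lowest, median, highest) in vehicle tumours and 1.39, 1.94 and 2.83 FPKM in ESK981 tumours. The groups overlapped, and 3 of 8 ESK981 tumours exceeded the highest vehicle tumour. Means were 1.59 ± 0.561 and 2.03 ± 0.494 FPKM (SD, n = 5 mice each), and the log2 difference was 0.35 ± 0.26, not called. With the flow cell in the fit the difference was 1.998 ± 0.45 and was called, as were 5786 of all genes tested. The mean was 1.84 ± 0.406 FPKM with anti-PD-1 and 1.89 ± 0.796 FPKM with the combination.

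The ratio of Cdh5 to Pecam1 sets the endothelial adhesion genes against each other within a tumour. It ran from 0 to 0.954 in vehicle tumours (median 0.687) and from 1.18 to 1.67 in ESK981 tumours (median 1.49), with no overlap. Anti-PD-1 tumours, at 0.988 to 1.36, also lay above every vehicle tumour, and combination tumours spanned 0.719 to 1.76. All vehicle tumours other than 5R came from the other flow cell, and the part of the flow cell in this ratio cannot be told apart from that of treatment: vehicle 5R, the 1 vehicle tumour on the shared flow cell, gave 0 from 0 Cdh5 fragments and 7 Pecam1 fragments.

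**Figure D2:**
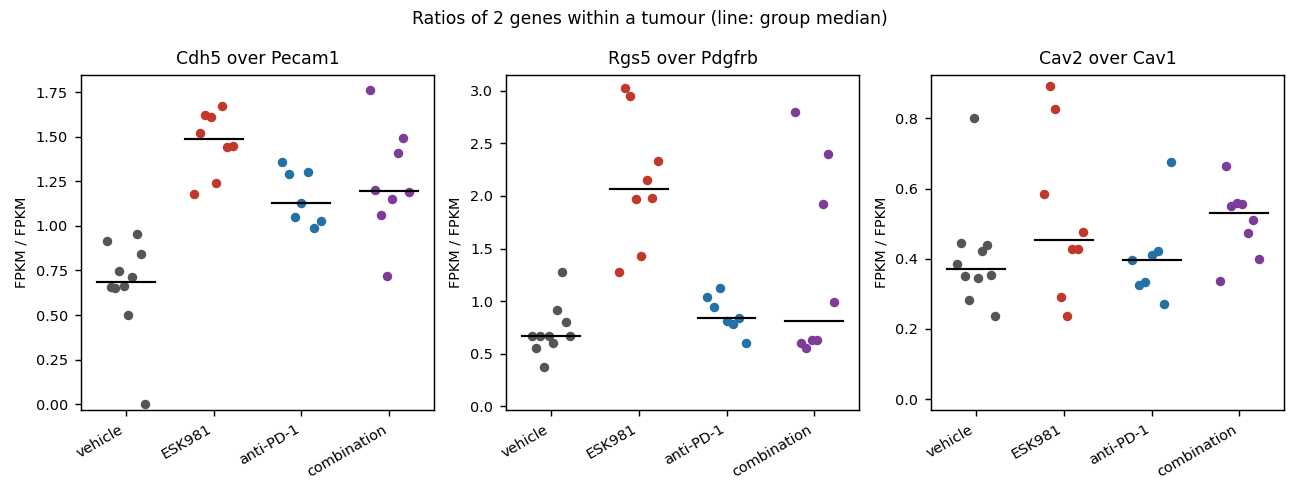
Ratio of FPKM of 2 genes within each tumour (y axis) by group (x axis), with a line at the group median. Cdh5 over Pecam1 and Rgs5 over Pdgfrb are higher in ESK981 than in vehicle tumours, at medians of 1.49 against 0.687 and 2.06 against 0.669, while Cav2 over Cav1 overlaps across all 4 groups.

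Among pericyte genes, Rgs5 (ENSMUSG00000026678.10, chromosome 1: 169655501 to 169695813) stood at 0.222, 1.6 and 2.07 FPKM (lowest, median, highest) with vehicle and at 1.76, 3.22 and 5.87 FPKM with ESK981. Of the 8 ESK981 tumours, 6 exceeded every vehicle tumour, and the mouse means of the groups did not overlap. Group means were 1.4 ± 0.493 and 3.5 ± 1.2 FPKM (SD, n = 5 mice each), a log2 difference of 1.06 ± 0.27. Anti-PD-1 and the combination gave 2.13 ± 0.911 and 1.93 ± 0.573 FPKM. The highest tumours were ESK981 1R (5.87 FPKM) and 2R (5.08 FPKM), and without them the difference was 0.73 ± 0.28 and was no longer called.

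Pdgfrb (ENSMUSG00000024620.11) encodes the receptor through which pericytes are recruited, and fibroblasts express it as well. Vehicle tumours held 0.332, 1.96 and 4.19 FPKM and ESK981 tumours 0.936, 1.57 and 2.09 FPKM (lowest, median, highest), so the ESK981 tumours sat inside the vehicle range. The means were 2.15 ± 1.15 and 1.54 ± 0.293 FPKM (SD, n = 5 mice each), with 2.38 ± 0.62 FPKM for anti-PD-1 and 1.99 ± 1.11 FPKM for the combination. Cspg4 (ENSMUSG00000032911.5, chromosome 9: 56865033 to 56899870), the proteoglycan of pericytes, was the lowest of the 10 genes, with means of 0.484 ± 0.271 FPKM with vehicle, 0.351 ± 0.141 FPKM with ESK981, 0.701 ± 0.196 FPKM with anti-PD-1 and 0.431 ± 0.145 FPKM with the combination. Its tumours overlapped between all groups.

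As the level of Pdgfrb was not higher and that of Rgs5 was, the ratio of Rgs5 to Pdgfrb differed in the same direction as Rgs5. It was 0.371 to 1.28 in vehicle tumours (median 0.669), 1.28 to 3.02 in ESK981 tumours (median 2.06) and 0.603 to 1.13 in anti-PD-1 tumours (median 0.838). Combination tumours ranged from 0.551 to 2.8 around a median of 0.813.

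Acta2 (ENSMUSG00000035783.8, chromosome 19: 34241090 to 34255590) was highest with anti-PD-1 and not with ESK981. Vehicle tumours had 0.681, 4.57 and 9.79 FPKM, ESK981 tumours 2.42, 4.99 and 8.01 FPKM, anti-PD-1 tumours 0.744, 10.1 and 21.9 FPKM, and combination tumours 3.12, 6.1 and 12.6 FPKM (lowest, median, highest). All groups overlapped, and 4 of the 7 anti-PD-1 tumours were above the highest vehicle tumour. Mouse means averaged 5.16 ± 2.82 FPKM with vehicle and 10.9 ± 3.6 FPKM with anti-PD-1 (SD, n = 5 mice each), a log2 difference of 0.93 ± 0.38 that was not called. Leaving out vehicle 5R, anti-PD-1 4R and also combination 5R, it was 1.18 ± 0.36 and was called. With the flow cell in the fit it was 2.80 ± 0.86 and was called, as were 4397 of all genes tested. The ESK981 difference of Acta2 was near 0 and changed sign with the scaling, from 0.04 on FPKM as deposited to -0.06 after median-of-ratios scaling and -0.01 after scaling to nuclear protein-coding genes.

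Mgp (ENSMUSG00000030218.2, chromosome 6: 136872435 to 136875823) had the widest range of FPKM among the 10 genes, though not the widest in folds. Vehicle tumours ran from 12.2 to 42.0 FPKM with a median of 26.2 FPKM, and ESK981 tumours from 19.8 to 206 FPKM with a median of 44.1 FPKM. ESK981 1R (206 FPKM) and 2R (153 FPKM) were far above the other 6 ESK981 tumours, which ran from 19.8 to 55.9 FPKM. The mean was 25.4 ± 6.31 FPKM with vehicle, 78.9 ± 53.9 FPKM with ESK981, 33.8 ± 9.51 FPKM with anti-PD-1 and 34.3 ± 9.38 FPKM with the combination (SD, n = 5 mice each). The ESK981 difference was 1.27 ± 0.35 on the log2 scale with all tumours and 0.56 ± 0.28, not called, without those 2.

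Sparcl1 (ENSMUSG00000029309.7, chromosome 5: 104079111 to 104113733) had the same 2 tumours on top, with 11.5 FPKM in ESK981 1R and 8.95 FPKM in 2R. Its lowest, median and highest levels were 0.172, 2.97 and 4.3 FPKM with vehicle and 3.65, 5.86 and 11.5 FPKM with ESK981. Means of 2.73 ± 1.11 and 6.54 ± 2.13 FPKM (SD, n = 5 mice each) gave a log2 difference of 1.18 ± 0.29, and of 0.89 ± 0.30, not called, without ESK981 1R and 2R. The anti-PD-1 and combination means were 3.89 ± 1.1 and 3.43 ± 0.83 FPKM.

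The tumours ESK981 1R and 2R also differed in their other markers. Their summed pericyte list was 110 and 95.2 FPKM, against 58 to 70.3 FPKM in the other 6 ESK981 tumours, and the red blood cell list 110 and 58.7 FPKM against 6.5 to 32.5 FPKM. Anpep and Steap4, which other cells express too, made up most of the pericyte sum; without them, a step taken after seeing the data, it was 10.2 and 9.4 FPKM against 8.34 to 12.2 FPKM. Their endothelial list, at 20.8 and 15.3 FPKM, was close to the range of 12.1 to 18.6 FPKM in the others. The part of these markers in the Rgs5, Mgp and Sparcl1 differences was not tested.

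Cav1 (ENSMUSG00000007655.16, chromosome 6: 17306335 to 17341452), the structural coat protein of caveolae, was among the more abundant of the 10 genes. Vehicle tumours had 14.8, 39.9 and 56.3 FPKM and ESK981 tumours 23.5, 86.1 and 130 FPKM (lowest, median, highest). The groups overlapped because ESK981 1R and 2R, highest for Mgp, were lowest for Cav1 at 23.5 and 26.0 FPKM, while 5 of the other 6 ESK981 tumours exceeded every vehicle tumour. The means were 38.1 ± 10.4 and 74.3 ± 43.1 FPKM (SD, n = 5 mice each), a log2 difference of 0.79 ± 0.39 that was not called; without those 2 tumours it was 1.22 ± 0.34 and was called. Anti-PD-1 and the combination gave 59.6 ± 24.4 and 52.8 ± 28.0 FPKM.

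Cav2 (ENSMUSG00000000058.6, chromosome 6: 17281185 to 17289115), the partner of caveolin-1 in the coat, was higher in all 8 ESK981 tumours than in any vehicle tumour. Levels were 8.97, 13.7 and 19.9 FPKM with vehicle, 21.0, 32.95 and 47.0 FPKM with ESK981, 15.5, 22.9 and 31.5 FPKM with anti-PD-1 and 15.7, 19.1 and 54.9 FPKM with the combination (lowest, median, highest). The mean was 14.1 ± 1.68 FPKM with vehicle and 31.9 ± 8.66 FPKM with ESK981 (SD, n = 5 mice each), a log2 difference of 1.13 ± 0.22 with all tumours and 1.31 ± 0.21 without ESK981 1R and 2R. Mouse means with anti-PD-1 (22.9 ± 5.06 FPKM) were all above those with vehicle too, as for 2.88% of all genes tested. The ratio of Cav2 to Cav1 overlapped across all groups, with medians of 0.37 with vehicle, 0.452 with ESK981, 0.397 with anti-PD-1 and 0.53 with the combination.

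**Figure D3:**
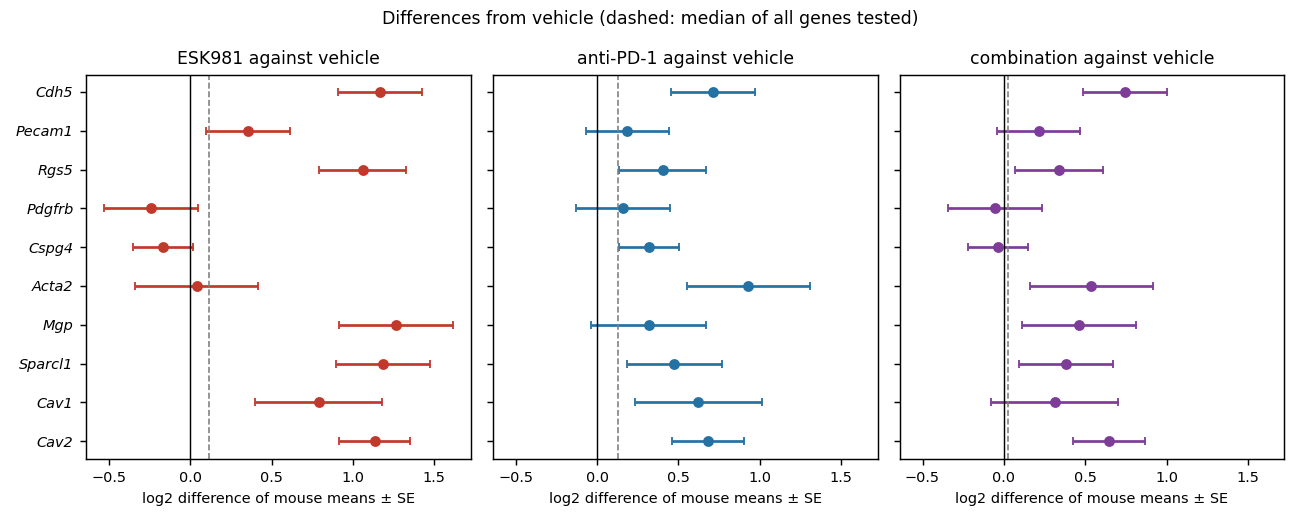
Log2 difference of each treated group from vehicle (x axis, estimate ± SE over 5 mice a group) for the 10 genes (y axis). The dashed line is the median of all genes tested; with ESK981, Cdh5, Rgs5, Mgp, Sparcl1 and Cav2 lie between 1.06 and 1.27, and Pdgfrb, Cspg4 and Acta2 lie between -0.24 and 0.04.

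Neither anti-PD-1 nor the combination brought any of the 10 genes past the threshold against vehicle in limma with all tumours (0 of 10 in each), where 0.783% and 0.606% of all genes tested were called. With anti-PD-1 all 10 estimates were above 0, with a median of 0.44 (all genes 0.13). Their largest values were 0.93 ± 0.38 for Acta2, 0.71 ± 0.26 for Cdh5 and 0.68 ± 0.22 for Cav2. With the combination 8 of 10 were above 0, with a median of 0.36 (all genes 0.03), and the largest were 0.75 ± 0.26 for Cdh5 and 0.65 ± 0.22 for Cav2. With the flow cell in the fit, 7 members were called for anti-PD-1 (Cdh5 2.25 ± 0.53, Acta2 2.80 ± 0.86) and 5 for the combination (Cdh5 2.41 ± 0.52). In that fit 4397 and 4467 of the 15846 genes tested were called, 97.8% and 95.8% of them higher. The Cav1 estimate for the combination turned to -0.01 ± 0.77. These comparisons share the vehicle mice, so their estimates are set side by side and not correlated.

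The combination was compared with each single treatment within 1 flow cell. Against ESK981 alone, 7 of the 10 genes were lower in the combination, led by Mgp (-0.80 ± 0.35), Sparcl1 (-0.80 ± 0.29) and Rgs5 (-0.72 ± 0.27), and 3 were higher (Acta2, Pdgfrb and Cspg4). Without ESK981 1R and 2R these estimates were -0.10 ± 0.28 for Mgp, -0.51 ± 0.30 for Sparcl1 and -0.39 ± 0.28 for Rgs5, and that of Cav1 went from -0.48 ± 0.39 to -0.91 ± 0.34. Against anti-PD-1 alone the differences lay between -0.39 ± 0.38 (Acta2) and 0.14 ± 0.35 (Mgp). Called were 0 of the 10 in either comparison, where 0% of all genes tested passed in limma; 1226 genes had an unadjusted p under 0.05 against ESK981 and 942 against anti-PD-1.

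The interaction is the ESK981 difference in the presence of anti-PD-1 minus that in its absence. Its median over the 10 genes was -1.11, beside -0.21 over all genes tested. There were 6 genes between -1.28 and -1.10, namely Sparcl1 (-1.28 ± 0.41), Cav2 (-1.17 ± 0.31), Cdh5 (-1.13 ± 0.36), Rgs5 (-1.12 ± 0.38), Mgp (-1.12 ± 0.50) and Cav1 (-1.10 ± 0.55). The others lay between -0.43 ± 0.54 (Acta2) and 0.03 ± 0.41 (Pdgfrb). In limma 0 of 10 were called, and 0.0252% of all genes tested were called. Leaving out vehicle 5R, anti-PD-1 4R and also combination 5R, Cdh5 (-0.97 ± 0.25) and Sparcl1 (-1.18 ± 0.30) were called. Without ESK981 1R and 2R the estimate of Mgp was -0.42 ± 0.39 and that of Rgs5 -0.79 ± 0.39. With the flow cell in the fit 4 members were called, Sparcl1 (-3.20 ± 0.64), Cdh5 (-2.62 ± 0.59), Rgs5 (-2.27 ± 0.69) and Pecam1 (-1.88 ± 0.51), as were 4033 of all genes tested instead of 4.

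The 6 lists of partner genes (endothelial junction and identity, pericyte, contractile smooth muscle, vascular matrix, caveolae, and PDGF ligands and receptors) held 72 genes other than the 10, of which 54 were tested. Between ESK981 and vehicle 5 of the 54 rose and 1 fell, where 14.4% of all genes tested were called, and their median log2 difference was 0.04 (all genes 0.11). These lists and those of other cells below were drawn up with earlier results of the same tumours known. Their adjusted p-values therefore describe where a gene lies and are not independent evidence. Of 15 endothelial genes 3 rose (limma, Benjamini-Hochberg adjustment over all genes). Ptprb, the receptor phosphatase that binds VE-cadherin, went from 0.471 ± 0.191 to 1.08 ± 0.342 FPKM (log2 difference 0.69 ± 0.19, adjusted p = 0.0246). Emcn, endomucin, rose by 0.51 ± 0.15 on the log2 scale (adjusted p = 0.0312) and Esam, an endothelial adhesion molecule, by 0.63 ± 0.20 (adjusted p = 0.0393). None of these 3 calls held without ESK981 1R and 2R (adjusted p = 0.125, 0.0903 and 0.104).

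Of 7 pericyte genes, Abcc9, a potassium channel subunit found in pericytes, rose from 0.474 ± 0.239 to 1.16 ± 0.345 FPKM (log2 difference 0.76 ± 0.19, adjusted p = 0.016). Ndufa4l2, a hypoxia-induced mitochondrial protein that pericytes also express, fell by 0.83 ± 0.24 on the log2 scale (adjusted p = 0.0291). Of 7 contractile genes, Mylk, myosin light chain kinase, rose by 0.50 ± 0.15 (adjusted p = 0.028). The calls of Abcc9 (adjusted p = 0.0818), Ndufa4l2 (0.0603) and Mylk (0.189) were lost without ESK981 1R and 2R.

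Called were 0 of 16 vascular matrix genes, 0 of 5 caveolae genes and 0 of 4 PDGF genes. Cavin1, the cytoplasmic coat protein that caveolae need, had means of 25.9 ± 5.83 FPKM with vehicle and 18.1 ± 4.3 FPKM with ESK981 (log2 difference -0.47 ± 0.18), the opposite sign to Cav1 and Cav2. Pdgfb, the ligand released by endothelium, had means of 1.25 ± 0.379 and 0.838 ± 0.259 FPKM. Cavin1 and Pdgfb were chosen after their values were seen. Against vehicle, 0 of the 54 genes were called with anti-PD-1 and 0 with the combination.

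Markers of other cells differed between ESK981 and vehicle as well, where 14.4% of all genes tested were called and 860 of the 15846 were called lower. Fibroblast markers fell for 5 of 8 genes, Dpt from 4.65 ± 4.19 to 0.143 ± 0.0856 FPKM (adjusted p = 0.00463), Col1a1 and Col3a1 among them; their summed level was 58.7 to 726 FPKM in vehicle tumours and 30.7 to 63.8 FPKM in ESK981 tumours. Macrophage markers fell for 3 of 5 (Cd68, C1qa and Csf1r) and T cell markers for 3 of 4 (Cd3g, Cd3e and Cd2). With the flow cell in the fit the estimates of Cd3g, Cd3e and Cd2 turned to 0.54, 0.55 and 0.15. Those of the fibroblast and macrophage markers in that fit are not reported here. The summed macrophage markers spanned 52.7 to 143 FPKM with vehicle and 33.4 to 62 FPKM with ESK981, and the summed T cell markers 0.357 to 7.08 and 0.56 to 2.02 FPKM. Hbb-bs, a haemoglobin chain, rose from 3.04 ± 0.589 to 18.7 ± 15.5 FPKM (adjusted p = 0.0267). Without ESK981 1R and 2R the calls of Hbb-bs (adjusted p = 0.206), Cd3e (0.0515) and Cd2 (0.0642) were lost. The part of these shifts in the levels of the 10 genes was not tested.

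The 10 genes were next compared from mouse to mouse within treatments, which does not use the differences between groups. Group means were subtracted from the mouse means of log2(FPKM + 0.5), and 45 pairs were tested over 20 mice by permuting mice within groups. After Benjamini-Hochberg adjustment 18 pairs passed by Pearson's r, all positive, and 16 by Spearman's rho. The share of pairs of other genes that would pass in the same way was not tested, so the count is not read as particular to these genes. Among the 15 treated mice, which share 1 flow cell, 11 passed by Pearson's r and 6 by Spearman's rho.

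**Figure D4:**
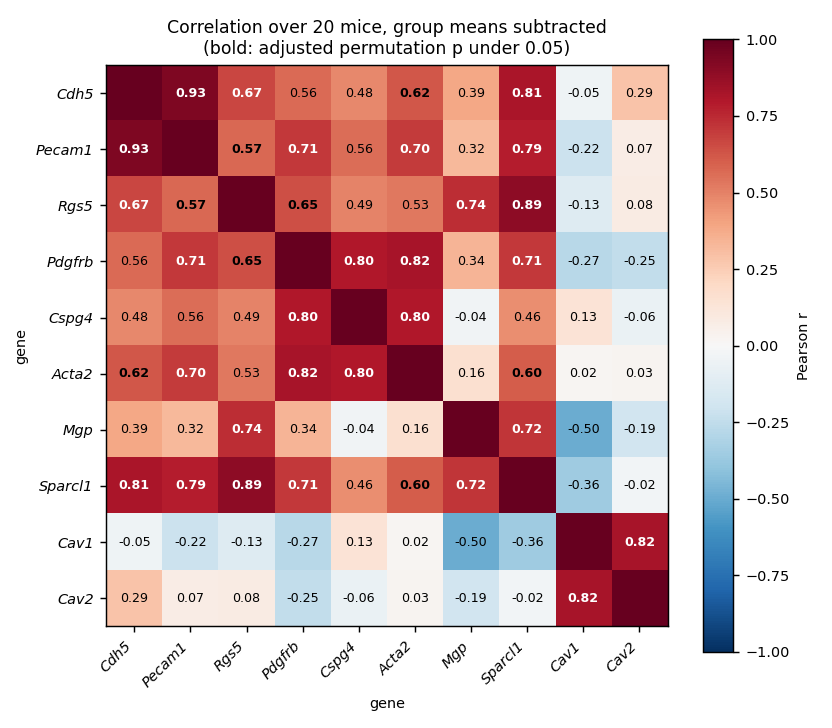
Pearson r between each pair of the 10 genes (both axes) over 20 mice after subtracting group means; bold values have an adjusted permutation p under 0.05. Most values among the 8 vessel wall genes are positive, with 17 passing pairs, but Mgp passes only with Rgs5 and Sparcl1. Cav1 and Cav2 pass with each other alone.

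The endothelial pair Cdh5 and Pecam1 had r = 0.93 (adjusted permutation p = 0.00045) and rho = 0.865 (adjusted permutation p = 0.00045), where the raw permutation p of r was 1e-05, the smallest that 100000 permutations can give. Leaving out the 2 mice farthest from the median of Cdh5 gave r = 0.864, and the treated mice alone r = 0.914. So Cdh5 and Pecam1 moved together among mice of a treatment, while the ratio between them had no overlap between vehicle and ESK981 tumours.

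Rgs5 moved most closely with Sparcl1, with r = 0.893 and rho = 0.917 (adjusted permutation p = 0.00045 for each). It gave r = 0.906 without the 2 farthest mice and r = 0.909 in treated mice. Sparcl1 also passed with Cdh5 (r = 0.813, adjusted permutation p = 0.00198) and Pecam1 (r = 0.789, adjusted permutation p = 0.0026). Both passed in treated mice too (adjusted permutation p = 0.0253 and 0.0334). Rgs5 passed with Cdh5 (r = 0.671, adjusted permutation p = 0.00793) and Pecam1 (r = 0.573, adjusted permutation p = 0.0317). In treated mice neither did (adjusted permutation p = 0.087 and 0.249). By rho Pecam1 with Rgs5 did not pass (adjusted permutation p = 0.102). Mgp correlated with Rgs5 (r = 0.741, adjusted permutation p = 0.00265, and rho = 0.717, adjusted permutation p = 0.0124) and with Sparcl1 (r = 0.716, adjusted permutation p = 0.00198, and rho = 0.767, adjusted permutation p = 0.00577). The values without the 2 farthest mice were 0.739 and 0.68. Mgp did not pass with Cdh5 (r = 0.39, adjusted permutation p = 0.108) or Pecam1 (r = 0.323, adjusted permutation p = 0.175). Without ESK981 1R and 2R both of these pairs passed (r = 0.691 and 0.594, adjusted permutation p = 0.00636 and 0.0166).

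The mural genes Pdgfrb, Cspg4 and Acta2 correlated with each other, and some of them also with endothelial and matrix genes. Pdgfrb and Acta2 had r = 0.822 (adjusted permutation p = 0.0015) and rho = 0.833 (adjusted permutation p = 0.0006), and r = 0.767 without the 2 farthest mice. Pdgfrb and Cspg4 had r = 0.8 (adjusted permutation p = 0.00251) and rho = 0.722 (adjusted permutation p = 0.0124), and Cspg4 and Acta2 r = 0.798 (adjusted permutation p = 0.0026) and rho = 0.783 (adjusted permutation p = 0.00468). Rgs5 passed with Pdgfrb (r = 0.648, adjusted permutation p = 0.00871, and rho = 0.611, adjusted permutation p = 0.0281) but in treated mice alone this pair did not (adjusted permutation p = 0.098). Rgs5 with Acta2 (r = 0.529, adjusted permutation p = 0.0743, and rho = 0.474, adjusted permutation p = 0.123) and with Cspg4 (r = 0.495, adjusted permutation p = 0.0909, and rho = 0.475, adjusted permutation p = 0.123) did not pass. Both passed once ESK981 1R and 2R were left out (r = 0.694, adjusted permutation p = 0.0105, for Acta2 and r = 0.647, adjusted permutation p = 0.0137, for Cspg4). Among pairs of Pdgfrb, Cspg4 or Acta2 with endothelial or matrix genes, Pecam1 passed with Pdgfrb (r = 0.706, adjusted permutation p = 0.0142) and Acta2 (r = 0.702, adjusted permutation p = 0.00793). Sparcl1 passed with Pdgfrb (r = 0.71, adjusted permutation p = 0.00405) and Acta2 (r = 0.603, adjusted permutation p = 0.0443), and Cdh5 with Acta2 (r = 0.623, adjusted permutation p = 0.0273). In that order rho was 0.644, 0.686, 0.594, 0.471 and 0.647 (adjusted permutation p = 0.0319, 0.013, 0.0319, 0.123 and 0.0261). Without the 2 farthest mice r was 0.578, 0.74, 0.594, 0.427 and 0.63. In treated mice alone only Sparcl1 with Pdgfrb passed of these (adjusted permutation p = 0.028). The rest had adjusted permutation p = 0.087, 0.087, 0.364 and 0.231. Without vehicle 5R and anti-PD-1 4R, Pecam1 with Acta2 and Sparcl1 with Pdgfrb passed (adjusted permutation p = 0.0497 and 0.0205). Pecam1 with Pdgfrb, Sparcl1 with Acta2 and Cdh5 with Acta2 then did not (0.0785, 0.239 and 0.164).

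Cav1 and Cav2, whose promoters are printed above, had r = 0.822 (adjusted permutation p = 0.0021) and rho = 0.847 (adjusted permutation p = 0.00349), with r = 0.838 without the 2 farthest mice and r = 0.837 in treated mice. Neither passed with any of the 8 vessel wall genes. Their Pearson r with Cdh5 was -0.0453 and 0.289, and with Pecam1 -0.218 and 0.0716. The most negative pair was Mgp with Cav1 (r = -0.498, adjusted permutation p = 0.175, and rho = -0.293, adjusted permutation p = 0.407), which rested on ESK981 1R and 2R: without them r was 0.0764.

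**Figure D5:**
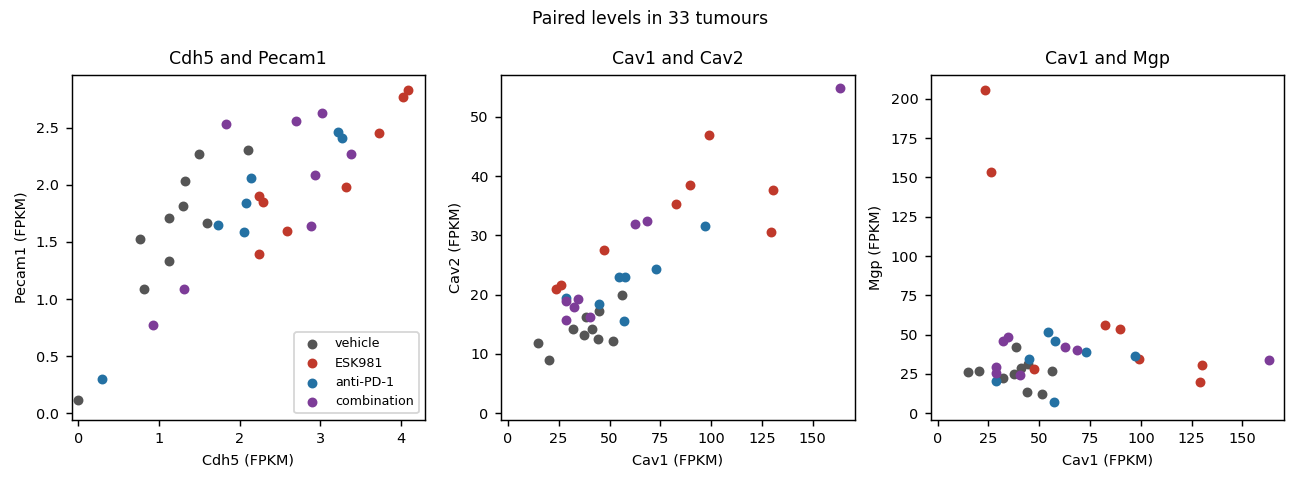
FPKM of 2 genes in each of the 33 tumours, coloured by group: Cdh5 and Pecam1, Cav1 and Cav2, and Cav1 and Mgp. Vehicle 5R and anti-PD-1 4R sit at the bottom left of the first panel but within the cloud of the second, and ESK981 1R and 2R sit at the top left of the third, with Mgp of 206 and 153 FPKM.

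Vehicle 5R and anti-PD-1 4R had the lowest levels of most vessel wall genes in their groups, and they differed in the caveolins. In vehicle 5R, Pecam1 was 0.114 FPKM, Rgs5 0.222, Sparcl1 0.172, Pdgfrb 0.332, Cspg4 0.0627 and Acta2 0.681 FPKM, each the lowest vehicle value, while Cav1 was 51.6 and Cav2 12.1 FPKM, inside the range of the other vehicle tumours. Anti-PD-1 4R likewise had the lowest Cdh5 (0.294 FPKM), Rgs5 (0.311 FPKM), Mgp (7.0 FPKM) and Acta2 (0.744 FPKM) of its group. Its Cav1 was 57.3 FPKM, the group median, but its Cav2 was 15.5 FPKM, the lowest of the 7 tumours. Mitochondrial protein genes summed to 9.09e+04 and 5.27e+04 FPKM in these 2 tumours, the highest of their groups, and the summed endothelial list to 3.42 and 7.51 FPKM, the lowest. Other lists stood apart too: lymphatic markers summed to 3.04 FPKM in vehicle 5R (others at most 2.56) and 3.96 FPKM in anti-PD-1 4R (at most 0.251), and T cell markers to 0.357 FPKM (others at least 1.78) and 0.494 FPKM (at least 2.71). In anti-PD-1 4R the sums of fibroblast (182 FPKM, others at most 109), platelet (4.73 FPKM, at most 1.82) and adipocyte markers (3.37 FPKM, at most 0.0576) were also the highest. Their part in the low vessel wall values was not tested. Without both tumours 14 of the 45 pairs passed.

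Genes most like each of 5 members were sought over the 11639 protein-coding genes tested, by Pearson r of group-centred mouse means over 20 mice; as descriptions these carry no test. Nearest to Cdh5 were Robo4 (r = 0.936), an endothelial guidance receptor, Pecam1 (0.93) and Ssh2 (0.93), a cofilin phosphatase. For Rgs5 they were Sparcl1 (0.893), Abcc9 (0.837) and Il1r1 (0.834), the interleukin-1 receptor. For Acta2 they were Thbs1 (0.916), Ctgf (0.907) and Tagln (0.905), the last an actin-binding protein of smooth muscle. Cav1 ran with Fosl1 (0.953), Cldn9 (0.946) and Etv4 (0.945), a transcription factor of the AP-1 family, a claudin and a transcription factor of the ETS family. Mgp ran with Adcy5 (0.919), Tfcp2l1 (0.904) and R3hdml (0.866), and for these 3 r was 0.782, 0.789 and 0.742 without ESK981 1R and 2R. Adcy5 is an adenylyl cyclase.

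Both flanks of a mouse share the host, and 13 mice had a tumour on each. The right tumour averaged lower than the left for all 10 genes, from -0.10 ± 0.11 (Cspg4) to -0.45 ± 0.32 (Acta2) on the log2 scale, where the median of all genes tested was -0.10. In limma on the within-mouse differences 0 of 10 were called (adjusted p = 0.534 to 0.662), as were 0% of all genes tested, with 1343 genes at an unadjusted p under 0.05. Cav2 was lower on the right in 11 of 13 mice (-0.34 ± 0.13). For Acta2 and Cdh5 that held in 7 of 13, for Pecam1, Pdgfrb and Cspg4 in 8, for Rgs5 and Cav1 in 9, and for Mgp and Sparcl1 in 10. Vehicle 5R and anti-PD-1 4R, low in most vessel wall genes, are among the right tumours. Their Acta2 was 0.681 and 0.744 FPKM, beside 3.23 and 21.9 FPKM in the left tumours of the same mice. Their part in the averages was not tested.

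Across those 13 mice the left level tracked the right level for Cav2 by Spearman's rho (0.83, permutation p adjusted over the 10 genes 0.0074) but not past the threshold by Pearson's r (0.693, adjusted permutation p = 0.0806). These correlations span the treatment groups and mice were permuted across groups, so differences between groups enter both r and p. The p-values are therefore not evidence that the flanks of a mouse go together within a treatment. Among the 8 treated mice r for Cav2 was 0.404. Over all 13 mice but the 2 farthest from the median, r for Cav2 was 0.888. For the other 9 genes r ran from -0.0498 (Mgp) to 0.509 (Cspg4), and none passed by either measure (adjusted permutation p = 0.12 or more). Some of these r turned on few mice: without the 2 mice farthest from the median, that of Cdh5 went from 0.469 to 0.109 and that of Acta2 from 0.0743 to 0.727, and among the 8 treated mice they were -0.14 and -0.253. Mgp in mouse 1 of the ESK981 group was 27.8 FPKM on the left and 206 FPKM on the right, and in mouse 4 of the anti-PD-1 group it was 51.9 and 7.0 FPKM; both mice were picked after their values were seen.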

How the data were processed

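RNA of 33 tumours was depleted of ribosomal RNA and sequenced. The authors deposited FPKM (fragments per kilobase of exon, scaled to library size), from STAR alignment and featureCounts counting on mm10, per the submitters' processing notes; their versions, the annotation and the strand setting are not stated there. Low values came out as whole fragments in 100% of cases (within 0.01), which gave the depth; Acta2 and Cspg4 lacked an exact length. Between 0 and 13482 fragments lay behind a value of the other 8 genes. PCR duplicates are not marked, so floors cover counting error only. Coordinates are those of GENCODE M21 (GRCm38).

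The replicate is the mouse: log2(FPKM + 0.5) was averaged over its tumours. The fit with a flow cell term used single tumours instead, with mouse as a random effect. The 15846 genes with at least 0.5 FPKM in at least 5 tumours were fitted in limma 3.58.1 (R 4.3.3; mean-variance trend, 4 groups, no covariate), two-sided, with Benjamini-Hochberg adjustment over all genes and calls at an adjusted p under 0.05. Fold changes on this scale understate those of low genes. The fit was tested on simulated data. The members, gene lists and tests were chosen with earlier results of these data known. Named were the 10 members, up to 3 called genes of smallest adjusted p from each list, and the 3 protein-coding genes most like each of 5 members. Left out were protein sequences and, for 5 members, promoters; some results of the tumour epithelium list are not reported here.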

Additional observations from a re-analysis of the deposited data

Results flagged for a closer look

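In 8 of 40 groups tested (10 genes in 4 treatment groups), 1 tumour lay further from the rest than the critical value for its group size on the log2(FPKM + 0.5) scale, where chance flags about 1 in 20 groups. All 8 were the lowest tumour, and they came from 2 tumours only. In vehicle 5R, Cdh5 was 0 FPKM (the other 9 vehicle tumours 0.761 to 2.1), Pecam1 0.114 FPKM (1.09 to 2.3), Sparcl1 0.172 FPKM (2.03 to 4.3) and Acta2 0.681 FPKM (3.22 to 9.79). In anti-PD-1 4R, Cdh5 was 0.294 FPKM (the other 6 anti-PD-1 tumours 1.73 to 3.27), Pecam1 0.298 FPKM (1.59 to 2.46), Sparcl1 0.662 FPKM (3.03 to 5.61) and Acta2 0.744 FPKM (6.36 to 21.9). Both tumours had the fewest fragments and most mitochondrial RNA of their groups, whose part in these values was not tested.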

How the results depend on the processing

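Calls of members describe the processing only, since the same values chose the genes. Between ESK981 and vehicle, the 5 called members became 3 without ESK981 1R and 2R (Cdh5, Cav1 and Cav2). They became 6 with the flow cell term, which added Pecam1, and 4 to 5 when a mouse was left out. Mgp lost its call also without vehicle mouse 2 or 5, without ESK981 mouse 1 or 2, and with no filter on low values. The 6 called partner genes became 11 with median-of-ratios scaling, 17 with a flow cell term, 10 without the 3 tumours vehicle 5R, anti-PD-1 4R and also combination 5R, 1 without ESK981 1R and 2R, and 1 to 8 when a mouse was left out, with 1 without ESK981 mouse 1, 2 without ESK981 mouse 2 or 5 or vehicle mouse 2, and 3 without ESK981 mouse 4 or vehicle mouse 3 or 5. Calls among all 15846 genes tested went from 2278 to 4420 with median-of-ratios scaling and to 5786 with the flow cell term. For the other alternatives only their range is given below, so the partner counts are not read as particular to these genes. The flow cell term rests on vehicle 5R alone. For ESK981 against vehicle it turned Cd3g, Cd3e and Cd2 to 0.54, 0.55 and 0.15 and the estimate of Pdgfrb to 1.18.

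With anti-PD-1 the 0 called members became 1 when scaled to nuclear protein-coding genes (Cav2), 7 with the flow cell term, 2 without those 3 tumours (Cdh5 and Acta2) and 1 without vehicle 5R and anti-PD-1 4R (Cdh5), an alternative chosen after seeing the data; the 0 partner genes became 1, 1, 13 and 3 with median-of-ratios scaling, nuclear scaling, the flow cell term and without the 3 tumours. With the combination, 0 members became 1 with median-of-ratios scaling (Cdh5), 2 with nuclear scaling, 5 with the flow cell term, 1 without the 3 tumours and 0 to 1 when a mouse was left out (1 without combination mouse 5); 0 partner genes became 1 with a pseudocount of 1, 1 with either scaling, 16 with the flow cell term, 1 without the 3 tumours, 1 without ESK981 1R and 2R, and 0 to 1 when a mouse was left out. For the interaction 0 members became 4 with the flow cell term, 2 without the 3 tumours and 1 without vehicle 5R and anti-PD-1 4R (Sparcl1). Among all genes, calls for anti-PD-1 were 358, 805 and 4397 with median-of-ratios scaling, nuclear scaling and the flow cell term. For the combination they were 1048, 1542 and 4467 in that order, and the flow cell term gave 4033 for the interaction. Passing pairs by Pearson's r went from 18 to 11 in treated mice only, where fewer mice were tested, and lay between 14 and 24 otherwise. By Spearman's rho they went from 16 to 6 in treated mice only and lay between 13 and 22 otherwise. Except where the tested numbers show it, the cause was not tested.

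Over all genes, calls ranged over the alternatives from 1054 to 5786 for ESK981 (2278 as reported), 29 to 4397 for anti-PD-1 (124), 54 to 4467 for the combination (96), 0 to 59 and 0 to 41 for the combination against anti-PD-1 and ESK981 (0 each) and 0 to 4033 for the interaction (4). The highest counts for ESK981, anti-PD-1, the combination and the interaction came with the flow cell term. The share of calls that were higher was 62.2%, 60.5% and 13.5% for ESK981, anti-PD-1 and the combination, 50.0%, 34.6% and 51.2% with median-of-ratios scaling, and 64.4%, 77.3% and 79.5% with nuclear scaling. Median-of-ratios scaling moved the median of all genes by -0.10 for ESK981, -0.12 for anti-PD-1 and 0.20 for the interaction. No paired analysis was possible because mouse numbers pair nothing across treatment groups; the flanks were paired within mice.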
